A study of Mus musculus with 64 samples.

Results

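Levels of 6 mRNAs, Fah, Snn, Zdhhc14, Pcp4l1, Limch1 and Fam161b, were described in 64 mouse heart libraries. They are 6 of the 16913 genes in the deposited count table, and they were selected on the difference between transgenic and non-transgenic hearts: they stood among the top falling genes in earlier results of the same libraries, with no threshold stated. That difference is therefore given below as a description, with no test for these genes. The study asked what interval training does in a mouse model of hypertrophic cardiomyopathy. TG mice carry a troponin T transgene, cTnT-delta160E, in which a glutamate is missing from cardiac troponin T, and nTG mice do not carry it. The labels place all mice on the C57BL/6J strain and name the whole heart as tissue. They give no age, and the promoter of the transgene is not given in the sources used here. Trained mice ran on a treadmill in alternating bouts of high and low intensity, known as high intensity interval training or HIIT, for 6 weeks, and sedentary mice did not exercise. The 8 groups were 7 sedentary nTG males, 9 sedentary TG males, 8 trained nTG males, 8 trained TG males, 8 sedentary nTG females, 8 sedentary TG females, 10 trained nTG females and 6 trained TG females. The labels number the libraries of a group as biological replicates, and p-values measure the spread between them.

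The gene count table could not be read by its column names. With the names as they stand, sex-linked genes contradicted the labelled sex in 32 of 64 columns. Each column of the long noncoding RNA table was therefore given the gene column that it matched best over 388 autosomal transcripts counted in both tables, and took the label of the former. The best match had a correlation of 0.598 to 0.863, against at most 0.403 for the next best, and each of the 64 matches was the best one seen from either table. After this step 0 of 64 libraries contradicted their labelled sex. Every value below uses the matched columns, and the values under the column names stand with the other processing settings.

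The 6 genes have separate known roles. Fah encodes fumarylacetoacetate hydrolase, which carries out the last step of tyrosine breakdown and releases fumarate and acetoacetate, a ketone body. Zdhhc14 encodes a palmitoyltransferase, one of a family of membrane enzymes that attach fatty acids to cysteines of other proteins. Pcp4l1 encodes a small protein related to Pcp4, a protein that binds calmodulin, the calcium sensor. Limch1 encodes a protein with a LIM and a calponin homology domain that activates non-muscle myosin II. Snn encodes stannin, a small membrane protein known from the toxicity of organic tin compounds. Fam161b is a relative of Fam161a, which encodes a protein of centrosomes and basal bodies of cilia.

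The deposited table names genes by Ensembl identifiers, and positions are those of GENCODE M21 on GRCm38. Fah (ENSMUSG00000030630) lies on the minus strand at chr7:84585159-84606722. Zdhhc14 (ENSMUSG00000034265) lies on the plus strand at chr17:5492557-5753811. Pcp4l1 (ENSMUSG00000038370) lies on the minus strand at chr1:171173262-171196268. Limch1 (ENSMUSG00000037736) lies on the plus strand at chr5:66745827-67057158. Snn (ENSMUSG00000037972) lies on the plus strand at chr16:11060945-11074985 and overlaps Litaf and Txndc11 on the other strand. Fam161b (ENSMUSG00000021234) lies on the minus strand at chr12:84345309-84361833 and overlaps Coq6 on the other strand. Limch1 overlaps 7 short or noncoding genes, of which Gm43281 and Gm43282 were measured. Whether the counting used the strand is not given in the sources used here, so reads of Snn and Fam161b that fall in the stretches shared with those partners cannot be assigned with certainty. The overlaps are partial. Litaf reaches up to base 11066157, Txndc11 lies from base 11074911 upward and Coq6 from base 84361657 upward.

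Promoter sequences are given as a description of the 6 genes, which share a direction between genotypes because they were selected for it. The RefSeq table of promoters on GRCm38.p6 held 7 entries for 5 of the 6 genes, each 300 bases long, with 250 bases before and 50 from the start site, which is base 1. The entries of Fah, Pcp4l1 and Snn are shown. That of Fah is rich in GC boxes and that of Snn holds the only CACGTG. Pcp4l1 had the clearest separation of the 6 genes, on the contrast that chose them. Capitals mark matches on either strand to 7 motifs. They are GGGCGG, known as the GC box, TATAAA, known as the TATA box, and CACGTG, the E-box read by clock factors. AGGTCA is bound by nuclear receptors and TNAAGGTCA, which contains it, by receptors related to the oestrogen receptor. The remaining motifs are AGATAA of GATA factors and CATTCC of TEAD factors. The promoters lie at chr7:84605893-84606192 on the minus strand for Fah, chr1:171196219-171196518 on the minus strand for Pcp4l1 and chr16:11066048-11066347 on the plus strand for Snn.
Fah: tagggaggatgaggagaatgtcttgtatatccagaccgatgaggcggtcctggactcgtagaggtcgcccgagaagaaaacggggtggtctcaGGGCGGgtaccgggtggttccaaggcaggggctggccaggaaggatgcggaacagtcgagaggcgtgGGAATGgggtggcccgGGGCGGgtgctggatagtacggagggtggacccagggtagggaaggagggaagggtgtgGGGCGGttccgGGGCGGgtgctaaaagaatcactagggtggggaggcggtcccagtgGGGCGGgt
Pcp4l1: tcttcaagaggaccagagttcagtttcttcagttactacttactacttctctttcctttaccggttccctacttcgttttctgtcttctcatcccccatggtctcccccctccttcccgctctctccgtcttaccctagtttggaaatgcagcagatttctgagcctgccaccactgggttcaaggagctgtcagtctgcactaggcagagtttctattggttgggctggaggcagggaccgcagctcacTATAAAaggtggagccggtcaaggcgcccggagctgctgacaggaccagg
Snn: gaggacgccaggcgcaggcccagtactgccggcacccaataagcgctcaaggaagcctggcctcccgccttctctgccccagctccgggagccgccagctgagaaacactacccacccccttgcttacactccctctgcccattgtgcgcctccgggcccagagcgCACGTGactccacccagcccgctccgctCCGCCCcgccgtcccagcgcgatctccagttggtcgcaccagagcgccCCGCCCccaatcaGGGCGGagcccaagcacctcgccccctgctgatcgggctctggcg
The Fah promoter held 5 copies of the GC box GGGCGG, between bases -157 and 48, and 64.3% of its bases were G or C. The Pcp4l1 promoter held none of them and a single TATAAA at bases 1 to 6, with 53.3% G or C, close to the median of 52.7% over all 32851 promoters of the table. The Snn promoter held 3 GC boxes and one CACGTG, at bases -84 to -79, with 70.3% G or C. This stretch lies within the GENCODE gene, which begins at base 11060945. It also holds base 11066157, where Litaf starts on the minus strand, so its motifs cannot be assigned to Snn alone. GGGCGG stood in 4 of the 7 entries and in 35.7% of all promoters. TATAAA stood in 2 of 7, both of Pcp4l1 and Limch1, and in 13.6% of all. AGGTCA, a site of nuclear receptors, stood in 2 of 7, both of Limch1, and in 16.3% of all. CACGTG stood in 1 of 7 against 7.15%, CATTCC in 1 of 7 against 14.7%, and the looser E-box CANNTG, not set in capitals, in 4 of 7 against 72.3%. TNAAGGTCA and AGATAA stood in 0 of 7, against 1.28% and 11.2% of all promoters. No single motif was found in all 7 entries.

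Libraries held 34574813 to 67068562 counted reads. Tnnt2, the troponin T gene that also counts transgene reads, lay at 6538 to 11721 CPM, the usual scaled read count per gene, in the 31 TG libraries and at 2561 to 3589 CPM in the 33 nTG libraries, so that every library lay on the side of its genotype label. All 10 cardiomyocyte markers were measured, at a summed 120286 to 154560 CPM, and none of 6 liver and kidney markers was in the table. The summed level of 8 fibroblast markers ranged from 667 to 1546 CPM in nTG and from 818 to 1897 CPM in TG libraries, and that of 8 macrophage markers from 154 to 312 and from 204 to 379 CPM. Fibroblast markers were called higher in TG hearts for 8, 4, 1 and 4 of 8 genes, and macrophage markers for 8, 5, 0 and 7 of 8. Of 7 measured blood markers, 0, 5, 0 and 1 were called lower in TG hearts and 1, 0, 0 and 0 higher, with a median log2 fold change of -1.22 in trained males. Their summed level was 261 to 4627 CPM in TG and 404 to 1115 CPM in nTG libraries, the highest in a sedentary TG male of a group with a median of 549.97 CPM. These and all later values of the 4 genotype comparisons are listed with males before females and, within a sex, sedentary before trained mice. Of the 10 cardiomyocyte markers, 6, 4, 2 and 5 were called lower in the same order, and 0, 1, 1 and 1 higher. Of all genes, 11.2%, 8.31%, 2.78% and 9.43% were called lower and 9.39%, 5.65%, 1.58% and 5.37% higher by the same edgeR test. Their part in the differences below was not tested. In these whole-heart samples, fewer cells of a type and less RNA per cell cannot be told apart.

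Among the 6 genes, abundance differed widely. Per kilobase of exon, Pcp4l1 had the highest mean level, 87.1 CPM, followed by Limch1 at 27.4, Snn at 7.09, Fah at 5.75, Zdhhc14 at 3.11 and Fam161b at 1.57. Mean counts per library were 6635 for Pcp4l1, 13643 for Limch1, 1016 for Snn, 618 for Fah, 463 for Zdhhc14 and 354 for Fam161b. Limch1 also varied least within groups, with a standard deviation of 0.06 on the log2 scale, against 0.19 for Fah and 0.18 for Fam161b.

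**Figure D1:**
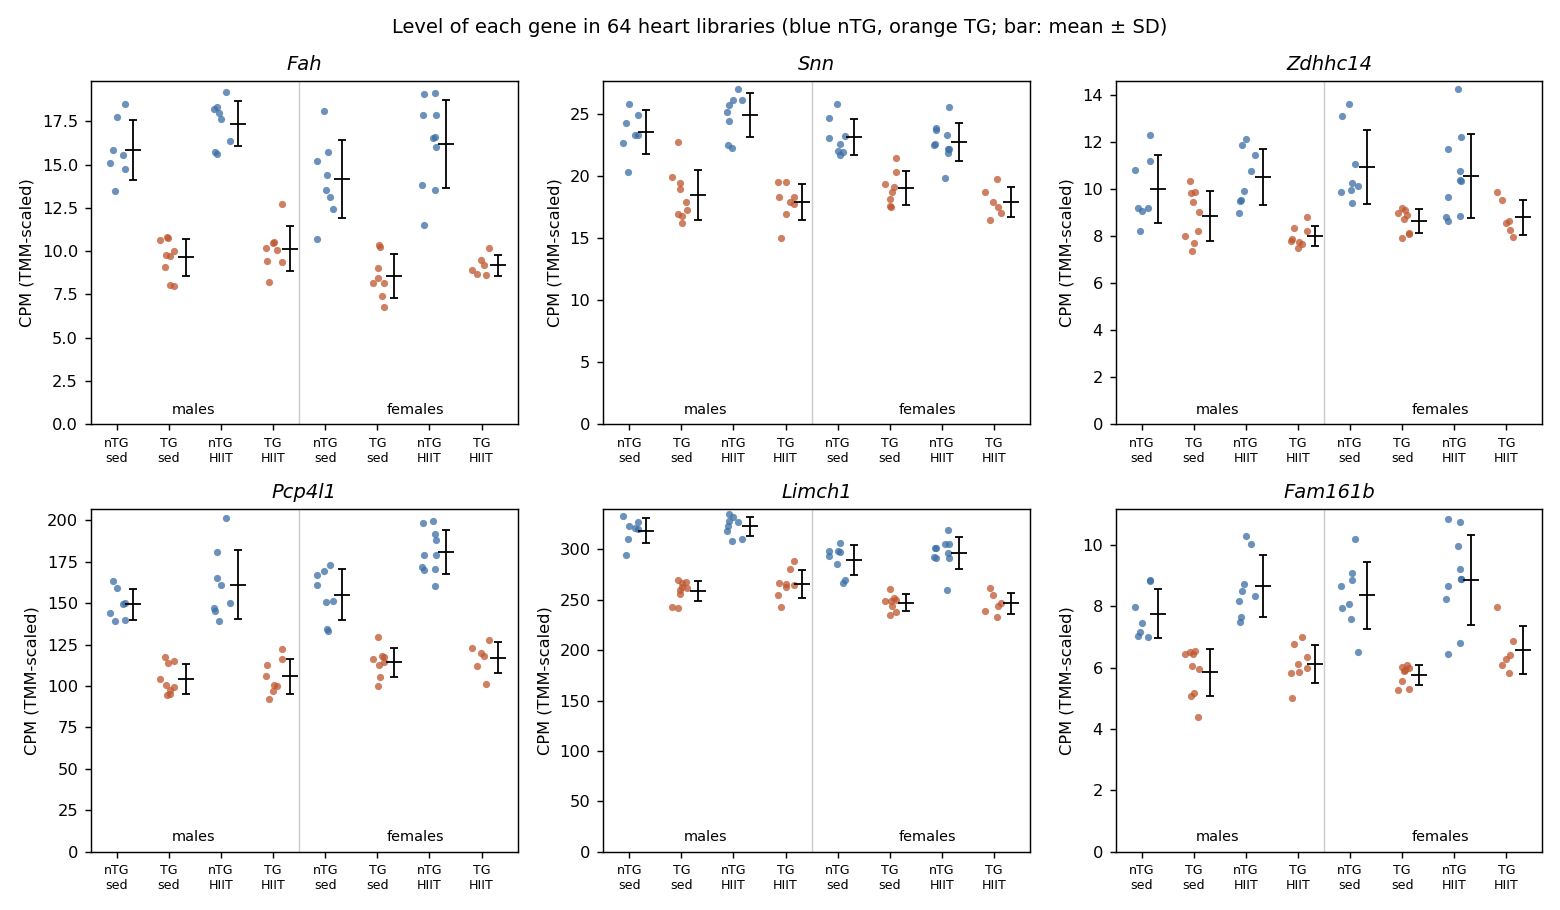
Level of each gene (vertical axis, CPM scaled by TMM factors, starting at 0) in the 8 groups of libraries (horizontal axis), with each library as a point and the group mean ± SD as a bar. All 31 TG libraries lie below all 33 nTG libraries for Pcp4l1, and the clouds of Zdhhc14 overlap most. The genes were chosen by this contrast.

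Fah was at its lowest in TG hearts of each sex and training state. In sedentary males its level ran from 13.5 to 18.5 CPM (median 15.5) in nTG and from 7.99 to 10.8 CPM (median 9.76) in TG hearts. Trained males had 15.6 to 19.2 CPM (median 17.8) and 8.24 to 12.7 CPM (median 10.1). No TG library reached the lowest nTG library of its own sex and training state in either set of males. Sedentary nTG females had 10.7 to 18.1 CPM (median 13.98) and sedentary TG females 6.74 to 10.4 CPM (median 8.30). Trained females had 11.5 to 19.1 CPM (median 16.6) in nTG and 8.62 to 10.2 CPM (median 9.05) in TG hearts. Females also showed no overlap within a training state, and across all groups 28 of 31 TG libraries lay below every nTG library. The log2 fold change of TG against nTG was -0.72 ± 0.09 (SE) in sedentary and -0.78 ± 0.09 in trained males, and -0.72 ± 0.09 in sedentary and -0.82 ± 0.10 in trained females, the steepest of the 6 genes in every comparison.

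Fah belongs to a chain of enzymes, and the list of tyrosine breakdown and ketone body use held 15 genes besides it, of which 12 were measured. The list was made with earlier results of these data known. By edgeR's quasi-likelihood test with Benjamini-Hochberg adjustment over all 16913 genes at an adjusted p of 0.05, 9 of 12 were lower and 1 was higher in TG than nTG sedentary males, against 11.2% of all genes called lower and 9.39% called higher. In trained males 7 were lower and 0 higher, against 8.31% and 5.65% of all genes. In sedentary females 2 were lower and 0 higher, against 2.78% and 1.58%, and in trained females 8 were lower and 0 higher, against 9.43% and 5.37%. The median log2 fold change of the list was -0.24, -0.16, -0.15 and -0.20 in that order, while the median of all genes lay between -0.01 and 0.01. Tat, Hpd and Hgd, enzymes between tyrosine and the substrate of Fah, were not in the table. The list also holds relatives of Fah and enzymes of wider metabolism, so its counts do not describe tyrosine breakdown alone.

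Fahd1 and Got1 were the genes of the list that fell in all 4 comparisons. Fahd1 ran from 21.5 to 28.3 CPM in TG and from 28.1 to 36.5 CPM in nTG sedentary males, which overlapped narrowly, and the other sets overlapped too. Fahd1, a mitochondrial hydrolase of the same fold family as Fah, had log2 fold changes of -0.34 ± 0.06, -0.21 ± 0.06, -0.23 ± 0.06 and -0.27 ± 0.07. Gstz1, maleylacetoacetate isomerase, which makes the substrate of Fah, fell in sedentary males by 0.31 on the log2 scale, in trained males by 0.21 and in trained females by 0.32. In sedentary females Gstz1 had a log2 fold change of -0.17 and an adjusted p of 0.0645 by edgeR. Bdh1, which interconverts ketone bodies, fell in trained males by 0.43 and in trained females by 0.28, and Oxct1, the enzyme that lets tissue burn ketone bodies, fell in sedentary males by 0.27, in trained males by 0.19 and in trained females by 0.21. Mif, which has a tautomerase activity, was the gene called higher, in sedentary males.

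**Figure D2:**
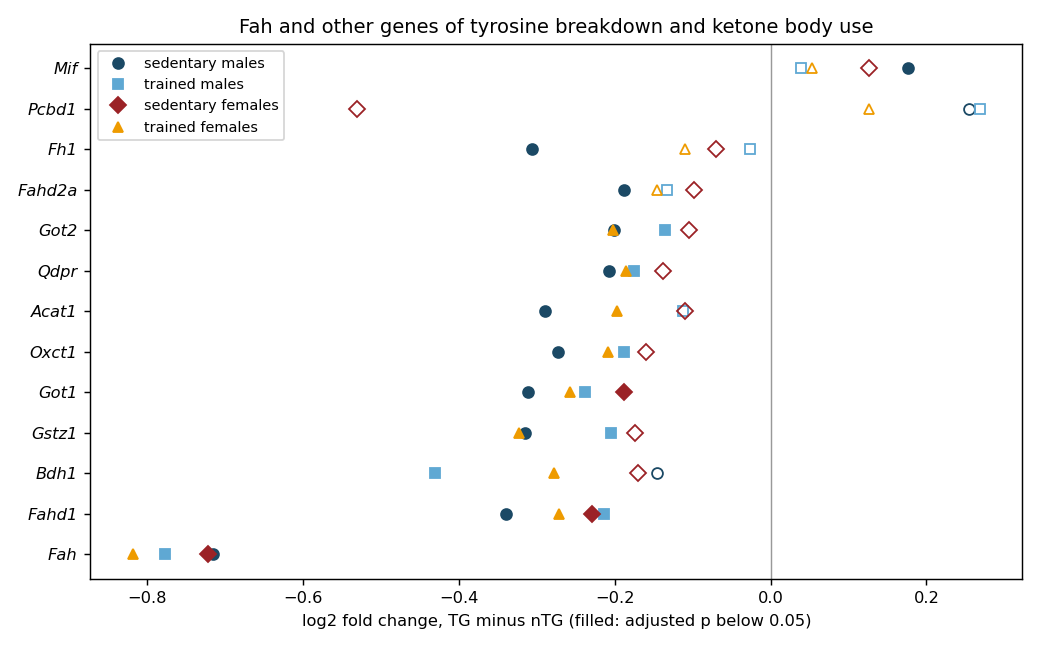
Log2 fold change of TG against nTG (horizontal axis) for Fah and the 12 measured genes listed for tyrosine breakdown and ketone body use. Rows are ordered by mean. The 4 comparisons are shown by colour and shape, filled where the adjusted p was below 0.05. Fah lies at -0.72 to -0.82, and most other genes between 0 and -0.4. Fah was chosen by this contrast, so its filled points are no test.

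Zdhhc14 had the smallest separation of the 6 genes. Sedentary nTG males had 8.22 to 12.3 CPM (median 9.20) and sedentary TG males 7.36 to 10.3 CPM (median 9.02), which overlapped. In trained males 8.95 to 12.1 CPM (median 10.3) in nTG stood against 7.48 to 8.80 CPM (median 7.83) in TG, with no overlap. Sedentary females had 9.38 to 13.6 CPM (median 10.2) and 7.91 to 9.19 CPM (median 8.79), also with no overlap, while trained females overlapped, at 8.61 to 14.2 CPM (median 10.4) and 7.96 to 9.87 CPM (median 8.58). Over all groups 14 of 31 TG libraries lay below every nTG library. The log2 fold changes were -0.18 ± 0.085, -0.40 ± 0.085, -0.34 ± 0.085 and -0.26 ± 0.088. The coefficient of variation was 12.1% in TG and 14.4% in nTG sedentary males, and 5.42% and 11.4% in trained males. In sedentary females it was 5.85% in TG and 14.4% in nTG, and in trained females 8.47% and 16.8%. Whether the spread differed between genotypes was not tested.

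The other palmitoyltransferase genes were called in both directions. Of 19 measured, 2 were higher and 1 lower in sedentary males by edgeR, against 9.39% and 11.2% of all genes. The other comparisons had 2 and 1, 1 and 0, and 1 and 3, against 5.65% and 8.31%, 1.58% and 2.78%, and 5.37% and 9.43%. Zdhhc2 rose in all 4 comparisons, from 1.72 to 2.27 CPM in sedentary nTG males to 2.89 to 5.18 CPM in sedentary TG males, which did not overlap. Its log2 fold changes were 0.78 ± 0.12, 0.74 ± 0.12, 0.68 ± 0.12 and 0.71 ± 0.12. Zdhhc15 rose in sedentary males by 0.83 and in trained males by 0.75 on the log2 scale, from a level under 1 CPM. In the whole list of 29 measured genes of palmitoylation, which adds enzymes that remove palmitate, 2 were higher and 5 lower in sedentary males, followed by 2 and 2, 1 and 0, and 1 and 6, beside the same shares of all genes. Ppt2, a lysosomal thioesterase, fell in 3 of these, with log2 fold changes of -0.16, -0.24 and -0.26, and had -0.07 with an adjusted p of 0.592 by edgeR in sedentary females.

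**Figure D3:**
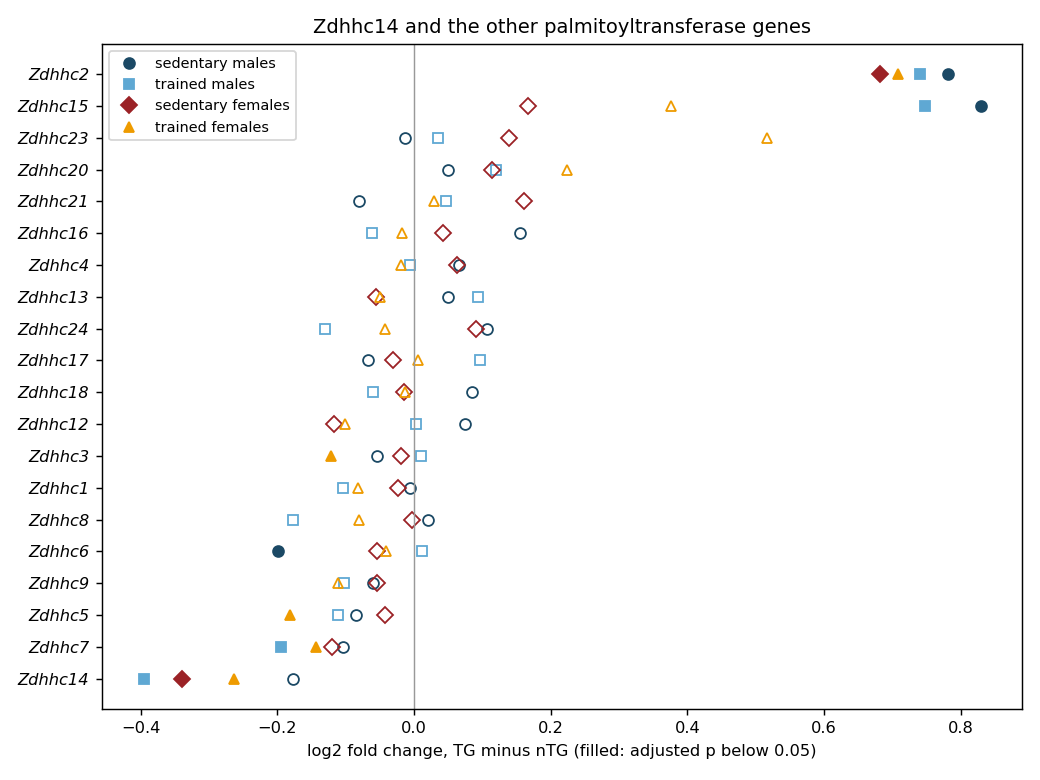
Log2 fold change of TG against nTG (horizontal axis) for Zdhhc14 and 19 other palmitoyltransferase genes (rows, ordered by mean), in 4 comparisons shown by colour and shape, filled where the adjusted p was below 0.05. Zdhhc14 is the lowest and Zdhhc2 the highest by mean; Zdhhc14 was chosen by this contrast, so its filled points are no test.

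Pcp4l1, chosen by this contrast, separated the genotypes in every library. Its 31 TG libraries ran from 92.0 to 129 CPM and its 33 nTG libraries from 133 to 202 CPM. In sedentary males, nTG hearts had 139 to 163 CPM (median 149) and TG hearts 94.6 to 117 CPM (median 101). Trained males had 139 to 202 CPM (median 156) and 92.0 to 122 CPM (median 103). The SD was 21.0 CPM in trained nTG males and 9.29 CPM in sedentary nTG males. Sedentary females had 133 to 173 CPM (median 156) in nTG and 99.9 to 129 CPM (median 115) in TG hearts. Trained females had 161 to 200 CPM (median 179) and 101 to 128 CPM (median 119). The log2 fold changes were -0.52 ± 0.06, -0.61 ± 0.06, -0.44 ± 0.06 and -0.63 ± 0.07.

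Genes of calmodulin and its small binding proteins and kinases were called in both directions. Of 19 measured of 22, 1 was higher and 3 lower in sedentary males by edgeR, against 9.39% and 11.2% of all genes. In trained males 2 were higher and 3 lower, against 5.65% and 8.31%. In each set of females 1 was higher and 2 lower, against 1.58% and 2.78% in sedentary and 5.37% and 9.43% in trained mice. Pcp4 itself, the closest relative of Pcp4l1, was not in the table, nor were Gap43 and Camk4. Camk2b, a subunit of the calmodulin-dependent kinase II, rose in all 4 comparisons, with log2 fold changes of 0.41 ± 0.08, 0.30 ± 0.08, 0.50 ± 0.08 and 0.61 ± 0.08. In trained females it lay at 26.9 to 35.7 CPM in TG and 18.2 to 23.9 CPM in nTG hearts, without overlap. Mylk3, the cardiac myosin light chain kinase, was called lower in sedentary males and in both sets of females.

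Limch1 had small differences and narrow spread. In sedentary males nTG hearts had 295 to 333 CPM (median 322) and TG hearts 242 to 270.1 CPM (median 262). Trained males had 309 to 335 CPM (median 325) and 243 to 289 CPM (median 265). The genotypes did not overlap in either. Sedentary females had 267 to 307 CPM (median 295) and 235 to 261 CPM (median 248.6), also apart. Trained females had 259 to 319 CPM (median 299) in nTG and 233 to 262 CPM (median 245) in TG hearts, and there one nTG female, replicate 4, lay within the TG range. The log2 fold changes were -0.30 ± 0.03, -0.28 ± 0.03, -0.23 ± 0.03 and -0.27 ± 0.04. These correspond to differences of -18.8%, -17.7%, -14.7% and -16.8%.

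Among genes of non-muscle myosin II and its control, 22 of 22 were measured. By edgeR 2 were higher and 1 lower in sedentary males, against 9.39% and 11.2% of all genes. In the others 1 and 2, 0 and 1, and 1 and 2 were called, against 5.65% and 8.31%, 1.58% and 2.78%, and 5.37% and 9.43%. These counts lie near the shares of all genes. Lmo7, which like Limch1 has LIM and calponin homology domains, was the lower gene shared by all 4. It lay at 334 to 414 CPM in TG and 424 to 470 CPM in nTG sedentary males, without overlap, and overlapped in trained males, at 326 to 446 and 410 to 495 CPM. Its log2 fold changes were -0.26 ± 0.05, -0.16 ± 0.05, -0.17 ± 0.05 and -0.24 ± 0.05, with adjusted p of 7.86e-05, 0.0188, 0.0373 and 0.000625 by edgeR. Myh10, a non-muscle myosin heavy chain, rose in sedentary males by 0.17.

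Snn had a mean level that differed between TG and nTG hearts by -21.6%, -28.1%, -17.8% and -21.3%. Sedentary nTG males had 20.3 to 25.8 CPM (median 23.3) and sedentary TG males 16.2 to 22.7 CPM (median 17.9), with 8 of 9 TG libraries below every nTG library. Trained males had 22.3 to 27.1 CPM (median 25.5) and 14.997 to 19.6 CPM (median 18.1). Sedentary females had 21.7 to 25.8 CPM (median 22.8) and 17.5 to 21.4 CPM (median 18.9). Neither of these sets overlapped. Trained females were also apart, at 19.9 to 25.6 CPM (median 22.6) in nTG and 16.4 to 19.8 CPM (median 17.7) in TG hearts. The log2 fold changes were -0.35 ± 0.06, -0.48 ± 0.06, -0.28 ± 0.06 and -0.35 ± 0.06.

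Litaf, a transcription regulator and lysosomal protein that overlaps Snn on the other strand, moved the other way where it was called, rising in sedentary males by 0.31, with log2 fold changes of 0.11, 0.18 and 0.16 in the other comparisons. Txndc11, the other overlapping gene, had log2 fold changes of -0.09, -0.09, -0.15 and -0.04, none past the threshold by edgeR. A list of 15 genes was made around stannin and the response to tin or tumour necrosis factor. It includes Litaf, Txndc11 and Zc3h7a, neighbours of Snn that are counted again among the neighbours below. Of the 15, 4 were higher, Litaf among them, and 3 lower in sedentary males, against 9.39% and 11.2% of all genes. The counts were 1 and 1, 0 and 0, and 0 and 3 in the others, against 5.65% and 8.31%, 1.58% and 2.78%, and 5.37% and 9.43%. Vdac1, a channel of the mitochondrial outer membrane, fell in sedentary males by 0.28 and in trained females by 0.23.

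Fam161b was the least abundant of the 6 genes. Sedentary males had 7.01 to 8.85 CPM (median 7.46) in nTG and 4.40 to 6.54 CPM (median 6.05) in TG hearts. Trained males had 7.50 to 10.3 CPM (median 8.44) and 5.03 to 6.99 CPM (median 6.05), and neither set overlapped. Sedentary females had 6.52 to 10.2 CPM (median 8.38) and 5.28 to 6.09 CPM (median 5.91), likewise apart, and the SD was 0.32 CPM in TG against 1.10 CPM in nTG. Trained females overlapped, with 6.46 to 10.9 CPM (median 8.89) and 5.82 to 7.99 CPM (median 6.34). The log2 fold changes were -0.41 ± 0.09, -0.50 ± 0.09, -0.54 ± 0.09 and -0.43 ± 0.09.

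Fam161a, its relative, lay at 1.04 to 1.32 CPM in the group means, and its log2 fold changes of -0.04, 0.22, 0.13 and 0.19 did not pass the threshold by edgeR. Of 29 genes of the centrosome, basal body and cilium, 0 were higher and 4 lower in sedentary males by edgeR, against 9.39% and 11.2% of all genes. The other comparisons had 3 and 1, 0 and 0, and 1 and 2, against 5.65% and 8.31%, 1.58% and 2.78%, and 5.37% and 9.43%. Pcnt, a scaffold of the centrosome, fell in sedentary males by 0.26 and in trained females by 0.20, and Poc1a, a centriole protein, fell in both sets of males by 0.31 and 0.34. Coq6, which overlaps Fam161b on the other strand and takes part in making coenzyme Q, fell in sedentary males by 0.20, trained males by 0.17 and trained females by 0.17, and had -0.09 with an adjusted p of 0.420 by edgeR in sedentary females.

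Counted over the 4 comparisons, the choice of the genes shows in the numbers, and nothing is read from them. Every TG library lay below every nTG library for 4, 6, 6 and 3 genes, where 1.3%, 1.29%, 0.284% and 2.04% of all genes did so. The separations over all groups, given above for Fah, Zdhhc14 and Pcp4l1, were not set against a share of all genes. In all, 284 genes, 1.68% of the table, were called lower in all 4 comparisons. The median log2 fold change of the 6 was -0.38, -0.49, -0.39 and -0.39.

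Training was not used to choose the genes, although the same libraries served the choice. None of the 6 was called between trained and sedentary hearts by edgeR at the adjusted threshold in any sex and genotype. Of all genes, 0% were called in nTG males, 0.148% in nTG females, 18% in TG males and 0% in TG females. At an unadjusted p under 0.05, 999, 2406, 5401 and 606 genes passed in these comparisons. DESeq2 called 4 genes in nTG males and 0 in TG females, and limma voom 1 higher in nTG males and 1 higher and 2 lower in TG females. In TG males, where 3036 genes were called, the 6 genes had log2 fold changes of -0.15 to 0.07. The largest of the 24 values was that of Pcp4l1 in nTG females, from 133 to 173 CPM in sedentary to 161 to 200 CPM in trained hearts, which overlapped. Its log2 fold change was 0.22 ± 0.06, a rise of 16.6% with a 95% interval of 7.25% to 26.8%, and its adjusted p was 0.107 by edgeR over 16913 genes and 0.0236 by DESeq2, whose own filter left 2813 genes in the adjustment. Fah followed, at 0.19 ± 0.09 in nTG females, with a 95% interval of 1.65% to 28.6%, and Fam161b at 0.19 ± 0.10 in TG females, with -0.05% to 30.4%. In nTG males all 6 were above 0, between 0.02 and 0.16, and none passed. For Limch1, the most precisely measured, the 95% intervals of the 4 training differences ran from -5.16% to 7.495%, so that larger changes lay outside them. For Fah they ran from -7.12% to 28.6%, and for Zdhhc14 from -19.5% to 18.5%.

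**Figure D4:**
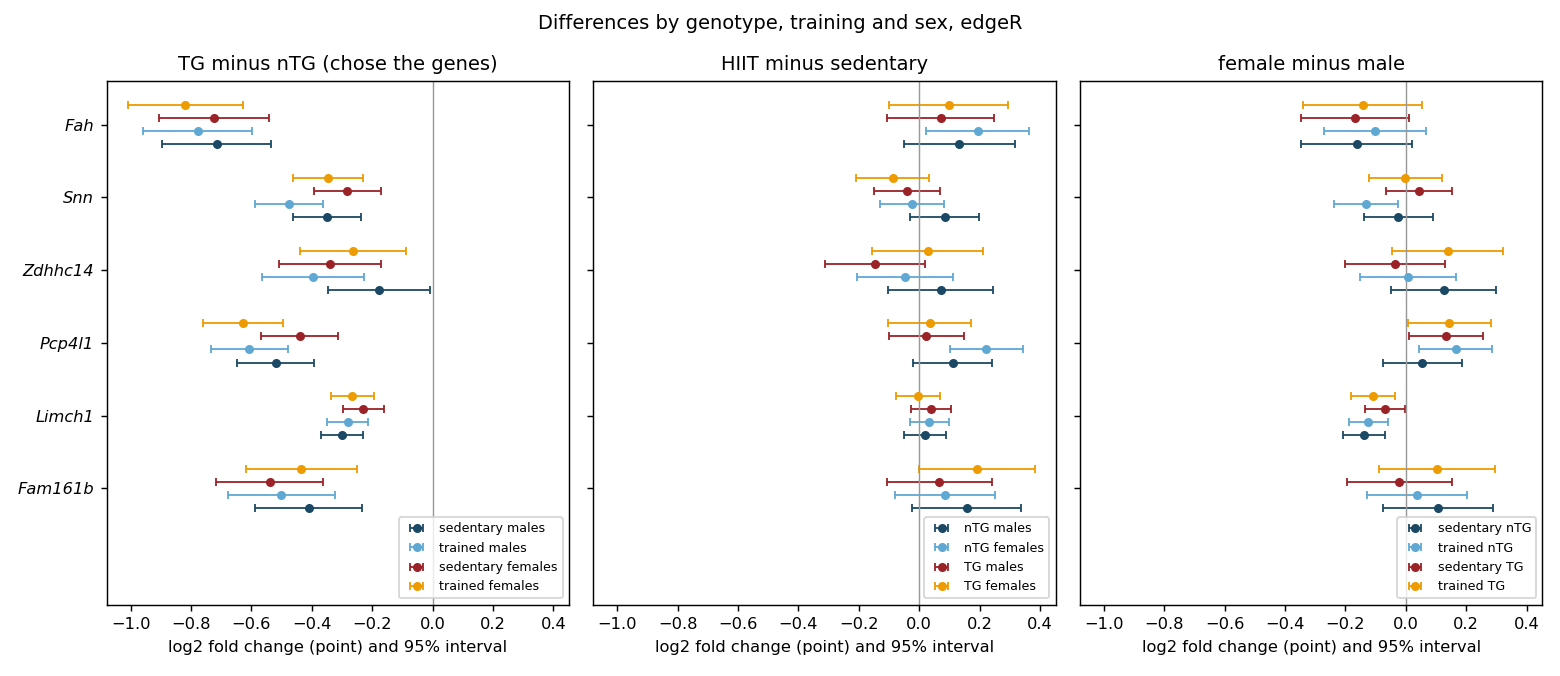
Log2 fold change (point) and 95% interval of each gene by genotype, training and sex (panels), each in 4 comparisons shown by colour. Genotype differences, which chose the genes, lie at -0.18 to -0.82, while training differences lie between -0.15 and 0.22 and sex differences between -0.17 and 0.17.

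How far the genotype difference itself changed with training is a difference of the contrasts that chose the genes, so it is given without a test. In males the difference of log2 fold changes, trained minus sedentary, was -0.06 ± 0.13 for Fah, -0.22 ± 0.12 for Zdhhc14, -0.09 ± 0.09 for Pcp4l1, 0.02 ± 0.05 for Limch1, -0.13 ± 0.08 for Snn and -0.09 ± 0.13 for Fam161b. In females it was -0.10 ± 0.13, 0.08 ± 0.12, -0.19 ± 0.09, -0.04 ± 0.05, -0.06 ± 0.08 and 0.10 ± 0.13 in the same order. Pcp4l1 in females and Zdhhc14 in males were the widest, each with a more negative genotype difference in trained mice. Of all genes, edgeR called 0 for this difference in males and 0 in females, with 2503 and 1093 at an unadjusted p under 0.05. In males limma voom called 181 higher and 119 lower, and DESeq2 2 and 11 of 3469 kept by its own filter. Whether training differed between sexes was tested for all genes, and 0% were called in nTG and 0% in TG hearts, with 1077 and 3063 genes at an unadjusted p under 0.05 by edgeR. Other tools differed in TG hearts, where DESeq2 called 69 genes higher and 154 lower of 9043 kept by its own filter and limma voom 311 higher and 616 lower, while each called 0 higher and 1 lower in nTG hearts. In genes of related function, training called genes in TG males only by this rule, where 18% of all genes were called. Of the 12 tyrosine and ketone genes, Acat1, Fahd1, Fh1 and Got1 were higher and Bdh1 lower after training. Genes of the other lists were called too. Of 29 palmitoylation genes 6 were higher and 4 lower, of 19 calmodulin genes 4 and 2, and of 22 non-muscle myosin genes 4 and 3. Of 29 centrosome and cilium genes 4 were higher and 0 lower, and of the 15 of the stannin list 3 and 3. In nTG males, nTG females and TG females 0 of the 126 related genes were called.

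Limch1 was called between the sexes in nTG hearts with all libraries in the 8-group edgeR fit. It was lower in females than in males in sedentary nTG hearts, with a mean of 289.6 ± 14.5 CPM (SD, n = 8) against 319 ± 12.6 CPM (n = 7). The log2 fold change was -0.14 ± 0.03, and the adjusted p was 0.0175 by edgeR, or 0.114 with only the 2 groups compared. In trained nTG hearts it was 296 ± 15.5 CPM (n = 10) in females against 323 ± 9.66 CPM (n = 8) in males, with -0.12 ± 0.03 and an adjusted p of 0.0214 by edgeR. The difference was -0.07 ± 0.03 in sedentary TG hearts, with an adjusted p of 0.258 by edgeR, and -0.11 ± 0.04 in trained TG hearts, with 0.0903 by edgeR and 0.0139 by limma voom. These TG values lie on the same side of 0, and whether they differ from the nTG values was not tested. The groups overlapped: 4 of 8 sedentary nTG females and 9 of 10 trained nTG females lay below every male of their kind. Leaving out single libraries carried the adjusted p across the threshold. In sedentary nTG hearts it was 0.0510 without male replicate 2, 0.0503 without male replicate 3 and 0.0599 without female replicate 4. In trained nTG hearts it was 0.0504 without male replicate 4 and 0.0516 without female replicate 4. No other of the 6 genes passed between sexes, with all libraries. Of all genes, 2.22% were called in sedentary nTG, 2.4% in trained nTG, 3.83% in sedentary TG and 2.29% in trained TG hearts. Pcp4l1 had log2 fold changes of 0.05 to 0.17, on the higher side in females in all 4, and Fah of -0.10 to -0.17, on the lower side. In trained nTG hearts Pcp4l1 reached an adjusted p of 0.0330 by edgeR without male replicate 5.

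The level of Tnnt2 among TG hearts was set against each gene, as deviations from the group means, to see whether more troponin T mRNA went with less of these mRNAs. Across 31 TG libraries Pearson's r was 0.41 for Pcp4l1 (Spearman's rho 0.37), 0.40 for Snn (rho 0.33) and 0.35 for Fah (rho 0.30). The permutation p of r, adjusted over 12 relations, was 0.179 for each of these. Values for Zdhhc14, Limch1 and Fam161b were -0.03, 0.05 and 0.17. Without the 2 libraries farthest from the median of Tnnt2, r was 0.29 for Pcp4l1, 0.20 for Snn, 0.14 for Fah, -0.13 for Zdhhc14, -0.085 for Limch1 and 0.22 for Fam161b. In 17 males alone r was 0.46, 0.62, 0.53, 0.21, -0.03 and 0.21 in this order. In 14 females alone it was 0.33, 0.01, 0.12, -0.45, 0.19 and 0.098, so that Zdhhc14 had a positive value in males and a negative one in females. With CPM of plain totals r of Limch1 was -0.33, which did not pass the permutation test. Among 33 nTG libraries r lay between -0.02 and 0.37, with adjusted permutation p of 0.179 or more.

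**Figure D5:**
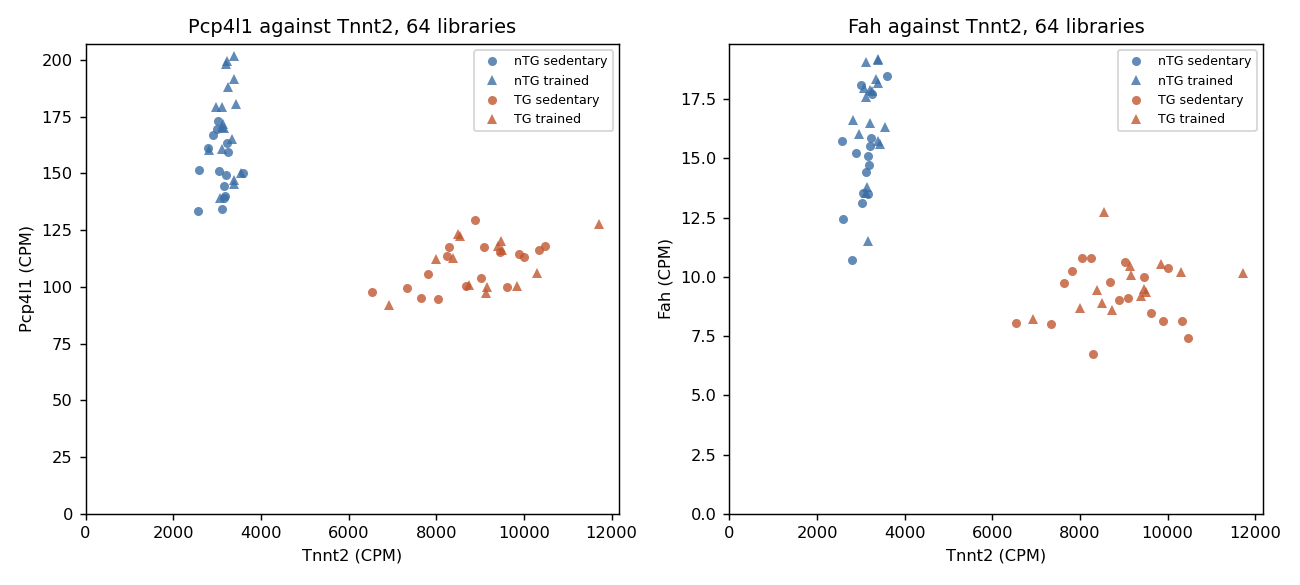
Level of Pcp4l1 (left) and Fah (right) against Tnnt2 (all axes in CPM from 0) in 64 libraries, with nTG in blue and TG in orange, circles for sedentary and triangles for trained mice. The genotypes form separate clouds on the Tnnt2 axis, at 2561 to 3589 and 6538 to 11721 CPM, and Pcp4l1 shows no overlap on the vertical axis.

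Between the 6 genes, deviations from group means were weakly related. Over 64 libraries Snn and Pcp4l1 had r = 0.38 (rho 0.35), with a permutation p of 0.00313, or 0.0303 adjusted over 15 pairs for r and 0.0664 for rho. Zdhhc14 and Pcp4l1 had r = 0.36 (rho 0.34), with an adjusted permutation p of 0.0303 for r and 0.0664 for rho. Without the 2 libraries farthest from the median, r was 0.30 and 0.31. With CPM of plain totals in place of TMM factors, neither passed, with adjusted p of 0.0807 and 0.0519. The r of Snn and Pcp4l1 was 0.55 in males and 0.13 in females. The other 13 pairs had r between -0.08 and 0.26 and did not pass.

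The genes whose deviations most resembled those of each gene were taken from 12155 candidates over 64 libraries, as a description that shares library and depth. Fdx1, a mitochondrial electron carrier, and Prdx6, a peroxidase, were nearest to Fah, with r of 0.63 and 0.61. Slc29a2 and Zfp672 were nearest to Zdhhc14, with 0.51 and 0.50. Slc4a3, an anion exchanger, and Gstm7, a glutathione transferase, were nearest to Pcp4l1, with 0.64 and 0.64. Art5 and Ank were nearest to Limch1, with 0.63 and 0.63, and Lysmd4 and Plxnb1 to Snn, with 0.65 and 0.62. Cep68 and Ubr2 were nearest to Fam161b, with 0.51 and 0.50. The next gene in line followed closely, at r of 0.61 for Fah, 0.49 for Zdhhc14 and 0.64 for Pcp4l1. It stood at 0.63 for Limch1, 0.60 for Snn and 0.48 for Fam161b, so the named genes do not stand out. Slc4a3 and Gstm7 were also lower in TG hearts in all 4 comparisons by edgeR, with log2 fold changes of -0.21 to -0.36 and -0.27 to -0.45. Art5 passed in none of them, with -0.11 to 0.05.

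Genes next to the 6 on the chromosome were called in both directions. The 24 measured neighbours were 2 on each side by start position. Gm43281 and Gm43282, taken after Limch1, lie within it, and Nox4 lies 2639374 bases from Fah. Of these 24, 3 were higher and 5 lower in TG sedentary males by edgeR, against 9.39% and 11.2% of all genes. In the others 1 and 4, 1 and 1, and 1 and 4 were called, against 5.65% and 8.31%, 1.58% and 2.78%, and 5.37% and 9.43%. The median log2 fold change of the neighbours was -0.058, -0.028, -0.028 and -0.048. Entpd5, an endoplasmic reticulum nucleotidase 12024 bases from Fam161b, fell in all 4, with log2 fold changes of -0.39, -0.35, -0.39 and -0.54. Sdhc, a subunit of succinate dehydrogenase, and Tomm40l, a mitochondrial import gene, which flank Pcp4l1, fell in both sets of males and in trained females, by 0.16 to 0.28. In sedentary females Sdhc had -0.08 and Tomm40l -0.11. Gm30873, a noncoding gene 237290 bases from Fah with a mean of 20.7 counts, rose in all 4, with 1.23, 1.43, 1.07 and 1.06.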

How the data were processed

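Whole-heart RNA of 64 mice was depleted of ribosomal RNA and sequenced, per the labels' protocols. The authors deposited a table of read counts for 16913 genes and a table of estimated counts for 3787 long noncoding transcripts. STAR 2.7.8a, RSEM 1.3.3, cutadapt 2.3, FastQC 0.11.8 and MultiQC 1.7 with GRCm38 (mm10) are listed in the submitters' processing notes, without their roles. The deposited counts are raw and the lowest mean count of a gene is 10.5, so very low genes are outside the table. Ensembl identifiers were paired with GENCODE M21 symbols for 16879 genes.

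Gene columns were matched to the columns of the noncoding table on centred log2 CPM (pseudocount 0.5) of 388 autosomal transcripts with a mean of at least 20 counts. A test on columns simulated from the gene counts themselves placed 64 of 64 correctly. This checks the procedure and is an easier case than the real tables, which were counted separately. Among male libraries in number order, the matched gene column numbers rose in 31 of 31 steps, and likewise among females, so the table orders the columns differently from its names.

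Counts were scaled by TMM factors and fitted with edgeR 4.0.16 (quasi-likelihood F test, all 8 groups in one model, filterByExpr, Benjamini-Hochberg adjustment over all genes, threshold 0.05). limma 3.58.1 (voom with quality weights for libraries, named limma voom here) and DESeq2 1.42.0 served as alternatives. Correlations used log2 CPM with a prior count of 2, as deviations from group means, with 100000 permutations, two-sided. On counts simulated for training in nTG males, the edgeR fit on 16913 genes recovered 48% of 100 genes changed by 0.3 and 79% of 100 genes changed by 0.7 on the log2 scale, with 5 false calls among 132.

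The 6 genes and the lists of related genes were chosen with earlier results of these data known. Besides the 6 genes and Tnnt2, the rule named 2 genes of each related list with the largest mean absolute change among those called and with a mean of at least 50 counts. It also named neighbours called in at least 2 of the 4 genotype comparisons, the 2 genes most like each of the 6, and measured relatives. Got1, Gstz1, Oxct1, Acat1, Fh1, Mif, Mylk3 and Txndc11 were named after their values were seen. One gene of the list of tyrosine breakdown is not reported here and was left out of its counts. No p-value is given for the 6 genes in the genotype comparisons.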

Additional observations from a re-analysis of the deposited data

Results flagged for a closer look

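The highest or lowest library of a group stood apart from the rest of its group in 2 of 56 groups examined, where chance gives about 2.8. Limch1 was at 259.49 CPM in trained nTG female replicate 4, while the other libraries of that group ran from 291.24 to 319.36 CPM. Tnnt2 was at 3589.4 CPM in sedentary nTG male replicate 4, while the others ran from 3154.8 to 3252.4 CPM. That Tnnt2 value is still below every TG library.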

How the results depend on the processing

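Reading the gene columns by their deposited names turned many directions. By name, columns labelled nTG trained males came from TG libraries in 7 of 8 cases and those labelled nTG trained females in 8 of 10, while those labelled nTG sedentary came from TG libraries in 0 of 7 males and 0 of 8 females. Under the names the median log2 fold change of the 6 genes was -0.17 in sedentary and 0.11 in trained males, and -0.20 in sedentary and 0.0069 in trained females, and the number of related genes called was 0 in each comparison. In trained males Fah, Snn, Zdhhc14, Pcp4l1, Limch1 and Fam161b had 0.082, 0.13, 0.050, 0.13, 0.086 and 0.16, and in trained females Snn, Zdhhc14 and Limch1 had 0.057, 0.061 and 0.019. Training then called 3 of the 6 in nTG males and 4 in nTG females, with -0.34 for Zdhhc14, -0.57 for Pcp4l1 and -0.65 for Fam161b in males, and -0.71 for Fah and -0.48 for Pcp4l1 in females. The sex difference of Limch1 was 0.0090 in sedentary and 0.013 in trained nTG hearts, with 0 genes of the 6 called in either. The genotype by training median was 0.23 in males and 0.21 in females. All 6 correlations with Tnnt2 within TG passed, at -0.806 for Fah, -0.752 for Snn, -0.838 for Pcp4l1, -0.805 for Limch1 and -0.765 for Fam161b, and all 15 pairs of genes passed, with 0.611 for Snn and Limch1 and 0.492 for Limch1 and Fam161b.

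With the matched columns, no genotype difference of the 6 genes changed sign under another setting. Training and sex differences that lay near 0 and were not called did. Without single libraries, Zdhhc14 by sex in trained nTG hearts ran from -0.051 to 0.038, Snn by sex in trained TG hearts from -0.026 to 0.030, Limch1, Zdhhc14 and Pcp4l1 by training from -0.022 to 0.012 in TG females, -0.0099 to 0.056 in TG females and -0.0091 to 0.046 in TG males. In nTG females Zdhhc14 and Snn by training ran from -0.11 to 0.0037 and from -0.046 to 0.00068, and Fam161b by sex from -0.065 to 0.00032 in sedentary TG and from -0.00020 to 0.078 in trained nTG hearts. Counts over all genes moved with the tool and with other settings, and limma voom also weighted libraries by quality. In sedentary females 268 genes were higher and 471 lower in TG hearts, against 535 and 734 with limma voom and 151 and 216 with only the 2 groups compared. In trained females 908 were higher, or 1454 with limma voom. Training in nTG females called 21 higher and 4 lower, against 130 and 1 with DESeq2 (adjusted over 2813 genes), 80 and 20 with limma voom, 11 and 2 with median-of-ratios size factors, 3 and 0 with the replicate block and 0 with only the 2 groups compared. In TG males training called 1286 lower, or 2101 with limma voom. By sex, trained TG hearts had 124 genes higher and 263 lower in females, against 756 and 1349 with limma voom, 204 and 389 with DESeq2 and 67 and 92 with only the 2 groups compared. Trained nTG hearts had 216 and 190, or 410 and 360 with limma voom and 357 and 254 with only the 2 groups compared. Sedentary nTG and TG hearts had 143 and 232, and 266 and 381, or 72 and 73, and 124 and 159, with only the 2 groups compared. The related genes called in sedentary females numbered 7, against 13 with limma voom, 3 with only the 2 groups compared and 4 to 11 when single libraries were left out, with 4 without nTG replicate 7, nTG replicate 8 or TG replicate 8 and 11 without nTG replicate 4. Limch1 was not called in sedentary nTG hearts (0 of the 6) with only the 2 groups compared, and 1 of the 6 was called in trained TG hearts by sex with limma voom. DESeq2 called 1 of the 6, Pcp4l1, for training in nTG females. With CPM of plain totals 0 pairs passed. Leaving out single libraries gave 0 to 1 genes called by sex in sedentary nTG, 0 to 2 in trained nTG and 0 to 1 in trained TG hearts, where Limch1 passed without male replicate 4. A fit with the replicate number as a block gave 1 of the 6 called by sex in sedentary nTG and in trained nTG hearts, and changed no other call of the 6 genes. Libraries that share a number were not taken as pairs: their deviations correlated at -0.288 to 0.337, and 0 to 2 libraries per comparison correlated best with their own number. The cause of these shifts was not tested. Fam161b, Zdhhc14, Fah and Snn, at 354 to 1016 mean counts a library, varied more within groups than Limch1. So did Pcp4l1 at 6635 counts, with an SD of 0.13 on the log2 scale, against 0.11 for Snn and 0.06 for Limch1. The part of count depth in this spread was not tested.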
